A study of Mus musculus with 3 samples.

Results

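Conventional dendritic cells in mouse blood were chosen by their transcript counts, as barcodes with at least 3 of 9 dendritic genes (Flt3, Xcr1, Clec9a, Cd209a, Itgax, Zbtb46, Naaa, Batf3 and Wdfy4), at least 5 UMIs of the class II gene H2-Aa, and at most 1 UMI each of Cd79a and of Cd3d, Cd3e and Cd3g summed. A UMI is a molecular identifier that marks 1 captured RNA molecule. Of 31064 barcodes left by quality limits (500 or more UMIs over 250 or more genes, with no more than 10% of them mitochondrial), 62 met the rule. The 62 members lay almost wholly in 1 library: 59 of 10204 barcodes from aged mice, 3 of 11713 from aged mice given AA, and 0 of 9147 from young mice.

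The series profiled peripheral blood mononuclear cells of C57BL/6 mice with a droplet method that reads the 3' end of each RNA, after the blood had been layered on lymphocyte separation medium. One library came from young mice on PBS, one from aged mice on PBS and one from aged mice on AA, in each case over 1 month, and AA stands for ascorbic acid in the series title. The labels give age only as young or aged, and state no number of mice behind a library. With 1 library per group no difference between groups could be tested, and every interval below is a 95% interval that covers counting error alone.

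Conventional dendritic cells take up antigen and present it to T cells on class II molecules, and they develop under the growth factor receptor Flt3. They are divided into a type marked by Clec9a and Xcr1, which depends on the factors Irf8, Batf3 and Id2 and presents antigen from dead cells to CD8 T cells, and a type marked by Cd209a, Clec10a and Sirpa, which depends on Irf4 and presents mainly to CD4 T cells. Blood carries few of either, and its monocytes share many genes with the second type.

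Library totals ran from 64496639 to 94944551 UMIs, and the median barcode held 4548 (young), 3724 (aged) and 4109 (aged+AA) UMIs. The aged members were deep, with 3337 UMIs in the lowest, 11111 in the median and 36479 in the highest. Free RNA of broken cells was estimated from haemoglobin UMIs at 1.09% of the aged members' UMIs. Passing barcodes shared between libraries numbered 27, 28 and 33 for the 3 pairs, and no member was among them.

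The members formed 0.578% (0.440 to 0.745%, exact Clopper-Pearson) of the aged library and 0.0256% (0.00528 to 0.0748%) of the aged+AA library. In the young library the count of 0 allows a share of up to 0.0328% at a floor of 3 counts, or 0.0403% by the exact bound. The aged+AA share was 0.0443 times the aged share (0.00888 to 0.136). The aged share itself, without its interval, was 17.6 times the young floor of 3 counts. These shares follow directly from the rule that chose the members and are given as a description.

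**Figure D1:**
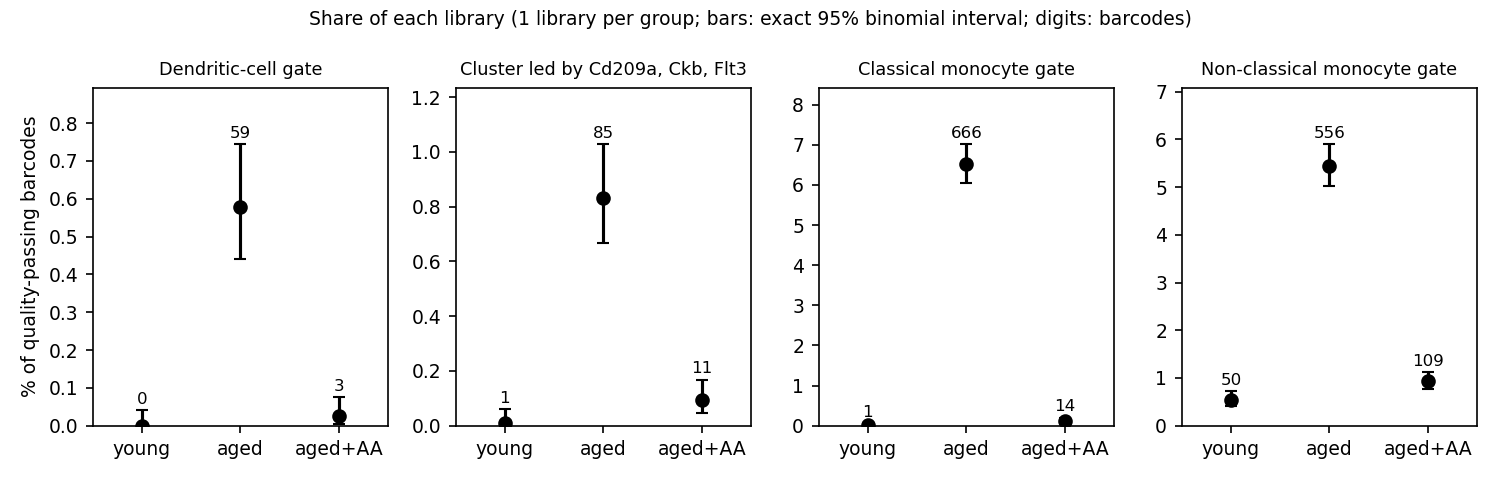
Share of quality-passing barcodes (vertical axis, %) in each library, for the dendritic-cell rule, the cluster that holds most members and the 2 monocyte gates; bars are exact 95% binomial intervals and digits are barcodes. The aged library is highest in all 4 panels, with 59, 85, 666 and 556 barcodes.

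Monocytes differed between the libraries in the same order. Classical monocytes, the Ly6c2-positive cells that enter inflamed tissue, were gated by Csf1r, Ly6c2 and at least 3 further markers and made up 666 barcodes (6.53%) of the aged library, 14 (0.120%) of the aged+AA library and 1 of the young library. Non-classical monocytes, which patrol vessel walls, were gated with Csf1r and markers such as Ace and Treml4, and numbered 556 (5.45%), 109 (0.931%) and 50 (0.547%). Among members and monocytes together, members were 59 of 1281 (4.61%, 3.52 to 5.90%) in the aged library and 3 of 126 (2.38%, 0.494 to 6.80%) in the aged+AA library. That ratio was 0.517 (0.104 to 1.59), an interval that includes 1. In the young library, 0 of 51 such barcodes were members, which allows up to 5.88% at a floor of 3 counts, or 6.98% by the exact bound. The young and aged+AA libraries held few myeloid barcodes of any of these kinds, and the part of this in the difference was not tested.

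Depth also entered the rule, since a deeper barcode shows more of the 9 genes. Among barcodes with at least 10000 UMIs, 40 of 1056 aged (3.79%), 2 of 704 aged+AA (0.284%) and 0 of 560 young barcodes were members. After every barcode was thinned to 2000 UMIs, 11 aged, 1 aged+AA and 0 young barcodes met the rule, and 10 of the 11 aged barcodes but 0 of the 1 aged+AA barcode had met it in full. That thinning left out 749 aged, 799 aged+AA and 192 young barcodes as too shallow.

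At the edge of the rule, 22 aged members showed exactly 3 of the 9 genes, and 18 aged barcodes that met every other limit showed 2. Of those, 11 inside and 6 outside lay in the cluster that holds most members. The H2-Aa limit was less crowded, with 2 aged members at 5 UMIs and 3 barcodes just outside at 4. Further out, 122 aged barcodes that met every other limit had 0 UMIs of H2-Aa, 8 of them in that cluster, and 19 had 1. The limit of 3 dendritic genes was thus also met by other cells, among them 96 of 666 classical and 40 of 556 non-classical monocytes. One UMI of Cd79a was seen in 5 aged members and 1 barcode fell outside with 2.

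The label was checked by clustering all passing barcodes. A cluster of 97 barcodes, led by Cd209a, Ckb, Flt3 and Rnd3 and here called the Flt3 cluster, held 42 of the 59 aged members and all 3 aged+AA members. It counted 85 aged, 11 aged+AA and 1 young barcode in all, so that its share fell in the same order of libraries as the rule's. Of the aged members outside it, 10 lay in a cluster led by Fn1, F13a1, Lyz2 and Chil3, genes of classical monocytes, and 7 in one led by Fabp4, Ace, Ear2 and Treml4, genes of non-classical monocytes. Siglech, which the gate for plasmacytoid dendritic cells used, was also among the leading genes of the Flt3 cluster. Of the members in that cluster, 1 of 3 aged+AA and 0 of 42 aged barcodes met the plasmacytoid gate. All clusters used the same counts as the rule, so this is a description and no test.

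For these 17 barcodes the data went against the label. Lyz2, lysozyme, gave 127 UMIs in the lowest, 278 in the median and 811 in the highest of the 10 members in the Fn1 cluster, or 17696 CPM (UMIs of a gene scaled to a library of 1000000) over their summed counts, against 1947 CPM in the 42 members of the Flt3 cluster and 24375 CPM in the classical gate. Those 10 had Flt3 in 8 and Cd209a in 2. The 7 in the Ace cluster had no UMI of Flt3, Clec9a, Xcr1, Cd209a or Zbtb46, and passed on Itgax (7 of 7), Naaa (7 of 7), Wdfy4 (6 of 7) and Batf3 (1 of 7). Their Ace, the angiotensin-converting enzyme, stood at 563 CPM (409 to 756) against 616 CPM (588 to 644) in the non-classical gate and 4.29 CPM (0.520 to 15.5) in the Flt3 cluster. They are counted below as members by the rule, and ratios printed below that move by more than 1.5 times in the 42 members of the Flt3 cluster are followed by the value there.

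**Figure D2:**
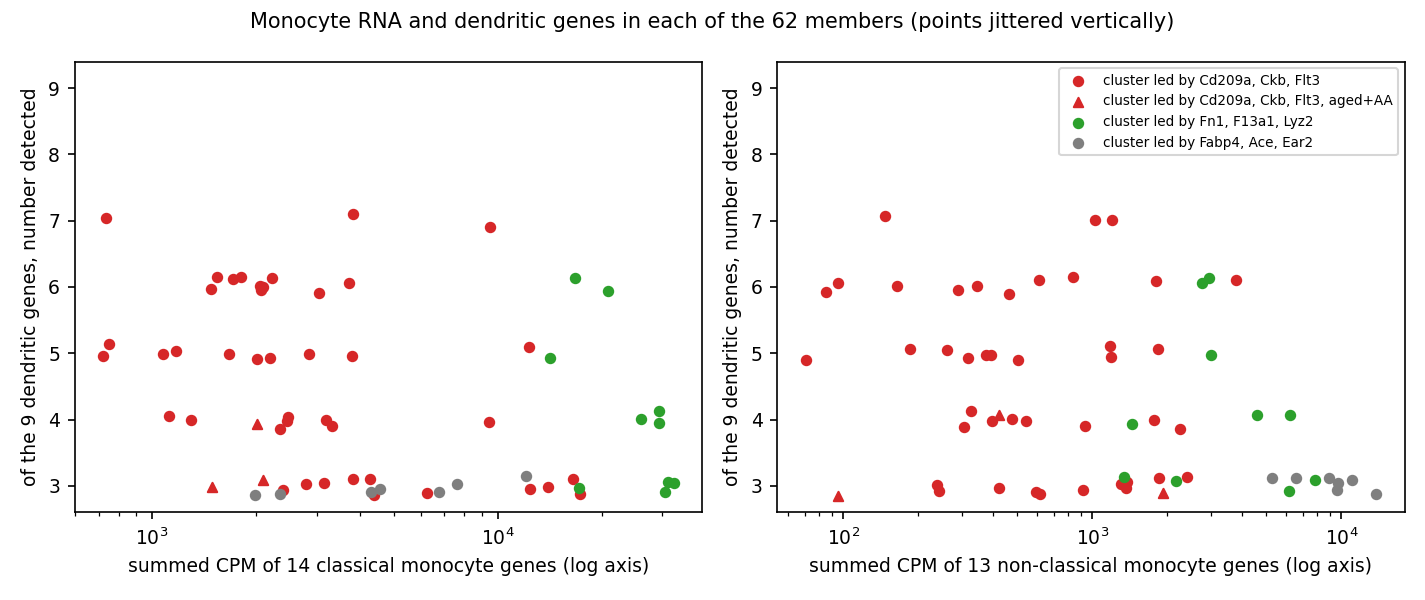
Each of the 62 members by the summed CPM of 14 classical (left) or 13 non-classical (right) monocyte genes (horizontal, log axis) and by the number of the 9 dendritic genes detected (vertical); colours are clusters, triangles aged+AA members. Classical monocyte genes ran from 722 to 17316 CPM in aged members of the Flt3 cluster and from 14162 to 32392 CPM in those of the Fn1 cluster.

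Markers of other cells were present at unequal levels. Of 12 T-cell markers, 6 had a UMI in some aged member, Lck, Lat, Cd8a, Cd4, Tcf7 and Bcl11b were at 0, and the highest member summed to 190 CPM. Of 9 macrophage genes 4 had UMIs, at 236 CPM in the median and 4586 CPM in the highest member, and C1qa, C1qc, Mertk, Marco and Vcam1 were at 0. Of 13 plasmacytoid genes 10 had UMIs, at 701 CPM in the median and 6192 CPM in the highest member, and Cox6a2, Klk1 and Pacsin1 were at 0. The 6 erythroid genes summed to 2915 CPM in the median and 353863 CPM in the highest member, beside a median of 3186 CPM in classical monocytes and 7834 CPM in B cells. B-cell markers summed to 325 CPM in the median member. The 6 platelet genes summed to 0 CPM in the median and 2643 CPM in the highest member. By the 2-fold call defined below, 2 of 6 (Pf4 and Gng11) were higher and 0 lower than in classical monocytes, beside 2.05% and 1.15% of all genes. Against B cells 4 of 4 platelet genes tested were higher, beside 9.92% of all genes. Neutrophil RNA was uneven, with 8 aged members at 20 or more UMIs of S100a8 and S100a9 and a highest sum of 127389 CPM over the 12 neutrophil genes. Predicted doublets were 4 of 59 (6.78%), against 4.36% of all aged barcodes. In the gates used for comparison they were fewer, at 1.35% (classical), 1.26% (non-classical) and 1.49% (B cells). Of the 4 member doublets, 2 were among the 7 members of the Ace cluster, and 0 were among the 15 with Clec9a or Xcr1 alone.

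The genes of the rule were spread unevenly over the aged members. Flt3 was seen in 46 of 59 (107 UMIs, 0 to 6 per member), Naaa, a lysosomal amidase, in 47 (142 UMIs), and Wdfy4, needed for cross-presentation, in 49 (159 UMIs). Batf3 was in 35 (139 UMIs), Itgax, the CD11c integrin, in 26 (57 UMIs) and Cd209a, a lectin, in 24 (124 UMIs). Clec9a, a receptor for dead cells, was in 21 (44 UMIs), the dendritic transcription factor Zbtb46 in 8 (8 UMIs), and the chemokine receptor Xcr1 in 2 (2 UMIs). For comparison, B-gate barcodes, with a median of 3266 UMIs, held Clec9a in 1 of 3481 and Cd209a in 5 of 3481, while the classical gate, with a median of 10339.5 UMIs, held Flt3 in 123 of 666 and Naaa in 535 of 666.

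Both dendritic types were present in the aged library. By the rule's own Clec9a, Xcr1 and Cd209a, 15 of 59 aged members (25.4%, 15 to 38.4%) had Clec9a or Xcr1 without Cd209a, 18 (30.5%, 19.2 to 43.9%) had Cd209a without the other pair, 6 had both and 20 (33.9%) had neither. All 15 of the first set, 17 of the 18 of the second and 5 of the 6 with both lay in the Flt3 cluster, against 5 of the 20 with neither. The sets hold fewer than 20 members on 1 side or both, so their values are given side by side with no ratio.

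**Figure D3:**
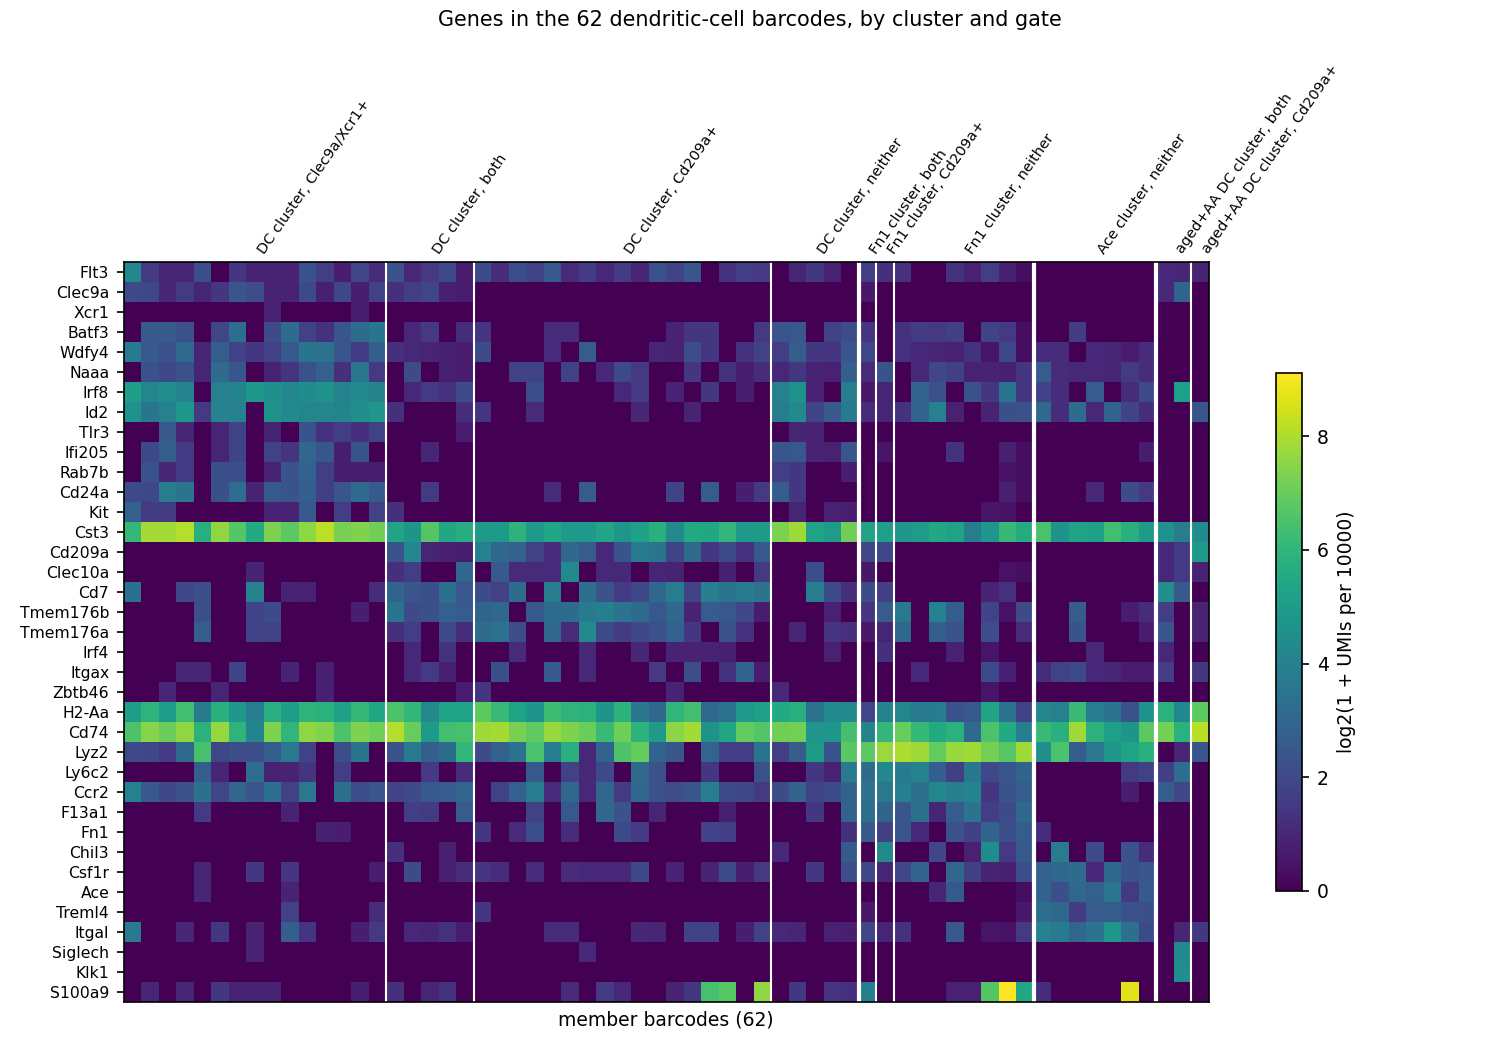
UMIs per 10000, as log2(1 + value), of genes (rows) in each of the 62 members (columns), ordered by library, cluster and detected marker. Irf8, Id2, Tlr3, Rab7b and Cst3 are brightest in members with Clec9a or Xcr1, Cd7 and Tmem176b in members with Cd209a, Lyz2 in the Fn1 cluster, and Ace and Treml4 in the Ace cluster; the plot calls the Flt3 cluster the DC cluster.

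Members with Clec9a or Xcr1 carried Irf8 and Id2, factors known for that type that the rule did not use. Batf3, also known for that type, was a gene of the rule. Irf8 gave 0 UMIs in the lowest, 22 in the median and 33 in the highest of the 15, against 0, 0 and 3 in the 18 members with Cd209a. Over summed counts this was 1800 CPM (1607 to 2011) against 60.6 CPM (31.3 to 106). Id2, an inhibitor of E proteins, gave 0, 21 and 41 UMIs against 0, 0 and 2, or 1663 CPM (1478 to 1866) against 30.3 CPM (11.1 to 66.0). The sets overlapped in Irf8 through 1 barcode and in Id2 through 2. One of these barcodes, named after its values were seen, had 0 Irf8, 2 Id2 and 93 Lyz2 UMIs, and the other had 32 Irf8, 0 Id2 and 18 Cd7 UMIs.

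Further genes of the Clec9a type went with them. Tlr3, a sensor of double-stranded RNA, had 27 UMIs in 10 of 15 members with Clec9a or Xcr1 and none in the 18 with Cd209a, where 0 UMIs bounds its level at 18.6 CPM against 154 CPM (102 to 225). Rab7b, an endosomal GTPase, had 35 UMIs in 12 members against none, and Gcsam 10 UMIs in 5 members against none. Kit, the stem cell factor receptor, had 21 UMIs in 8 members against none. Ifi205 stood at 240 CPM (173 to 324) against 5.05 CPM (0.128 to 28.2), and Cd24a at 514 CPM (414 to 632) against 96.0 CPM (57.8 to 150). Cst3, the protease inhibitor cystatin C, gave 22, 213 and 393 UMIs (lowest, median, highest) against 18, 38.5 and 86. Cadm1 and Itgae, often used for this type in tissue, had 1 UMI each in the aged members.

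Members with Cd209a alone had the genes of the other type. Cd7, an immunoglobulin-like surface protein, gave 0, 6 and 18 UMIs (lowest, median, highest) against 0, 0 and 18 in the members with Clec9a or Xcr1, and 682 CPM (572 to 807) against 183 CPM (125 to 258). Its sets thus overlapped over their whole range. Tmem176b, a membrane protein of endosomes, gave 0, 6 and 14 UMIs against 0, 0 and 4, or 576 CPM (475 to 692) against 68.6 CPM (35.4 to 120). Clec10a, a galactose lectin, had 31 UMIs in 11 of 18 members against 1 UMI in 1 of 15, but 16 of the 31 came from 1 member. Irf4 had 10 UMIs in 8 members against none, Sirpa 25 UMIs in 12 against 4 in 1, and Itgam 36 UMIs in 13 against 7 in 4. Klrd1, a lectin-like receptor of killer cells, stood at 531 CPM (434 to 642) against 109 CPM (65.4 to 170). Mgl2 was at 0 in every aged member. Lyz2 was also higher in this set, at 4411 CPM (4123 to 4714) against 926 CPM (789 to 1080), with 1 of its 18 members in the Fn1 cluster and 3 above the neutrophil limit, and the part of that RNA in the other values was not tested.

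The 6 members with both signals sat with the Cd209a set in these genes, with Irf8 at 148 CPM (73.9 to 265), Id2 at 67.3 CPM (21.8 to 157), Cd7 at 511 CPM (362 to 702) and Tmem176b at 457 CPM (317 to 639). None of the 6 was a predicted doublet. Of the 5 members with neither signal in the Flt3 cluster, 3 had 27, 14 and 19 Irf8 UMIs with 21, 12 and 17 Id2 UMIs, and the others had 1 and 0 Irf8 UMIs with 3 and 6 of Id2.

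**Figure D4:**
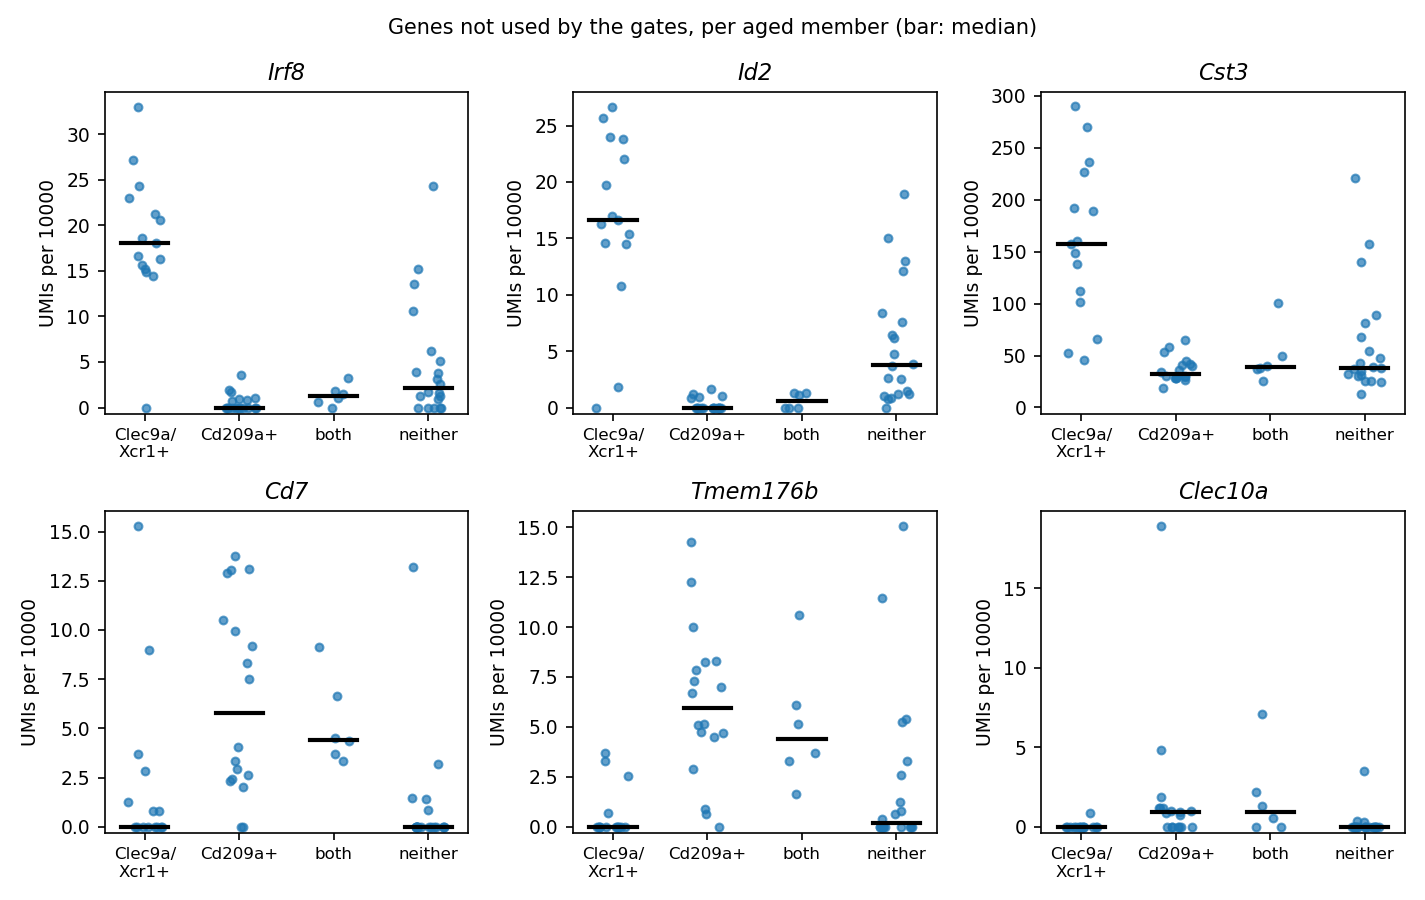
UMIs per 10000 (vertical) of 6 genes that did not define the sets, in each of the 59 aged members (points; bars are medians), by detection of Clec9a or Xcr1, of Cd209a, of both or of neither. The median member with Clec9a or Xcr1 lies above the median member with Cd209a for Irf8, Id2 and Cst3, and below it for Cd7, Tmem176b and Clec10a.

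Of 16 genes of mature, migrating dendritic cells 10 had UMIs, summing to 392 CPM in the median and 1672 CPM in the highest aged member, beside a median of 496 CPM in classical monocytes. Of the 8 that could be compared with classical monocytes 0 were called higher and 1, Ccl5, lower, by the 2-fold call defined below. Over all genes 2.05% were called higher and 1.15% lower, so 0 higher of 8 lies near that share. Fscn1, Ccl22, Ccl17, Cacnb3, Nudt17 and Socs2 were at 0 UMIs in the aged members, where 0 UMIs bounds a level at 5.10 CPM. Ccr7, the receptor that leads such cells to lymph nodes, had 8 UMIs in 3 members, 6 of them in 1 member of the Ace cluster. Il12b was at 0. Among co-stimulatory genes Cd86 had 30 UMIs in 21 members, Cd80 7 in 7 and Cd40 4 in 4.

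The 3 aged+AA members were unlike each other. The member with the most Clec9a (7 UMIs) had 10484 UMIs in all, 1 Flt3, 2 Cd209a, 19 H2-Aa, 36 Irf8 and 20 Siglech UMIs. It had a UMI of each of the 13 plasmacytoid genes, met the plasmacytoid gate, and so went against its label. Another had 11417 UMIs, 33 of Cd209a, 130 of H2-Aa and 329 of Cd74. The last had 9425 UMIs, with 1 each of Flt3, Clec9a and Cd209a, 54 of H2-Aa and 20 of Cd7. Without the barcode in the plasmacytoid gate 2 remain, and expression was not compared between libraries.

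Within the aged library the 59 members were next set against 3 other cell types, on UMIs summed per type and scaled to CPM. A gene was called where the 95% bound of its ratio nearest to 1 (exact conditional binomial interval) lay beyond 2-fold, among genes with at least 20 UMIs over both sides and without the genes of the rule and of the gate. Since the rule chose the members on the same counts, calls describe these barcodes and test nothing. Against classical monocytes 196 of 9544 genes (2.05%) were called higher and 110 (1.15%) lower. Against non-classical monocytes these were 280 (3.30%) and 293 (3.45%) of 8495, and against B cells, gated by Cd79a, Ms4a1 and H2-Aa, 1070 (9.92%) and 463 (4.29%) of 10791.

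The lower calls depended on the 17 members outside the Flt3 cluster. With the 42 members of that cluster alone, 241 genes were called lower than in classical monocytes and 469 lower than in non-classical monocytes. Scaling without ribosomal protein and mitochondrial genes moved the split against non-classical monocytes to 370 higher and 226 lower, as it shifted the median of all genes from -0.03 to 0.13 on the log2 scale.

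The class II pathway was looked at next. Ciita switches class II genes on through the X and Y boxes of their promoters, alpha and beta chains form the molecule, Cd74 is the invariant chain that guards it, and H2-DM and H2-O control peptide loading. The upstream stretches of 4 of these genes, from 130 to 31 bases before the start site, are shown. H2-Eb1 was called neither higher nor lower in members than in B cells, while H2-Oa and H2-Ob were lower, as given below. H2-Aa was required at 5 or more UMIs of members and B cells alike, so its levels are not compared between them. All 4 lie on chromosome 17 upstream of the annotated start, and the sequences are RefSeq's for GRCm38.p6 in the direction of the gene. Capitals mark the Y box letters CTGATTGG, or their core GATTGG where the longer run is not there.
H2-Aa (chr17:34287854-34287953, minus strand): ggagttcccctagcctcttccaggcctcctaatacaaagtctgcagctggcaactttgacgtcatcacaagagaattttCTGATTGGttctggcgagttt
H2-Eb1 (chr17:34305737-34305836, plus strand): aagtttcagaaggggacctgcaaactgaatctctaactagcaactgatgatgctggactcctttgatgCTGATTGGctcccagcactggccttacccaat
H2-Oa (chr17:34092249-34092348, plus strand): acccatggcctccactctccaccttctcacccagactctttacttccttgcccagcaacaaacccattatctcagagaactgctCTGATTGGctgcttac
H2-Ob (chr17:34238775-34238874, plus strand): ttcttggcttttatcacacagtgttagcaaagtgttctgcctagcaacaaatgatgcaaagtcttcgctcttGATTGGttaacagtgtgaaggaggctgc

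Searched on both strands of the 250 bases before each start, CTGATTGG was in 4 of 8 class II genes with an entry and in 3.83% of 32851 promoters. Those 4 include H2-Eb2 and H2-Oa, both called lower in members than in B cells. GATTGG, which the longer run contains, was in 8 of 8 and in 14.6%. TGACGTCA, the letters that the X2 box resembles, was in H2-Aa alone of the 8 and in 1.55% of promoters. Such matches are letters in a window and no evidence of binding.

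The chains H2-Ab1 and H2-Eb1 lay far above both monocyte types in the members and were called neither higher nor lower than in B cells, while the further beta chain H2-Eb2 was called lower than in B cells, on 2 member UMIs against 800 (0.0494 times, 0.00597 to 0.179). H2-Aa, which the rule used, gave 5 UMIs in the lowest, 34 in the median and 98 in the highest aged member. H2-Ab1, the beta chain partner, gave 3, 38 and 129 UMIs, and 3507 CPM against 70.8 CPM in classical monocytes, a ratio of 49.5 (45.0 to 54.5), and 3286 CPM in B cells, a ratio of 1.07 (1.03 to 1.11). H2-Eb1, another beta chain gene, had UMIs in 56 of 59 members. It was 58.7-fold (52.5 to 65.7) higher than in classical monocytes and 41.2-fold (35.8 to 47.7) higher than in non-classical ones. Against the latter it was 62.9-fold higher once free RNA was subtracted. Cd74 gave 10, 125 and 265 UMIs and was 27.2-fold (26.0 to 28.5) higher than in classical monocytes but 0.752 times (0.734 to 0.770) the B-cell level. Ciita was 27.6-fold (17.6 to 44.7) higher than in classical monocytes, on 73 member and 27 monocyte UMIs.

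The genes of peptide loading separated members from B cells. H2-Oa and H2-Ob, which form an inhibitor of H2-DM, were 0.205 (0.145 to 0.281) and 0.0782 (0.0531 to 0.111) times the B-cell level, yet 25.9-fold (13.9 to 50.7) and 12.7-fold (7.24 to 22.4) above classical monocytes, which became 41.9-fold for H2-Oa and 73.9-fold for H2-Ob once free RNA was subtracted. The beta chains of H2-DM went opposite ways against B cells, with H2-DMb1 4.41-fold (3.95 to 4.91) higher and H2-DMb2 0.0413 times (0.0220 to 0.0706) the level. These are near copies of one another and the counting could have split their reads, so their single values are uncertain. Of the processing enzymes, Ifi30, a lysosomal thiol reductase, was 3.89-fold (3.63 to 4.16) and Ctss, cathepsin S, 2.64-fold (2.45 to 2.85) higher than in B cells.

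As a list, 9 of 15 class II pathway genes were called higher and 0 lower against classical monocytes, where 2.05% and 1.15% of all genes were called, with a median log2 ratio of 2.68 beside 0.08 over all genes. Against non-classical monocytes 10 of 14 were higher and 0 lower, beside 3.30% and 3.45% of all genes. Against B cells 3 of 16 were higher and 4 lower, beside 9.92% and 4.29% of all genes, with a median of -0.38 beside 0.02. H2-DMb2 was not called against either monocyte type with Flt3-cluster members alone. These genes go with H2-Aa, which chose the members and the B gate, so the counts are no independent evidence.

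**Figure D5:**
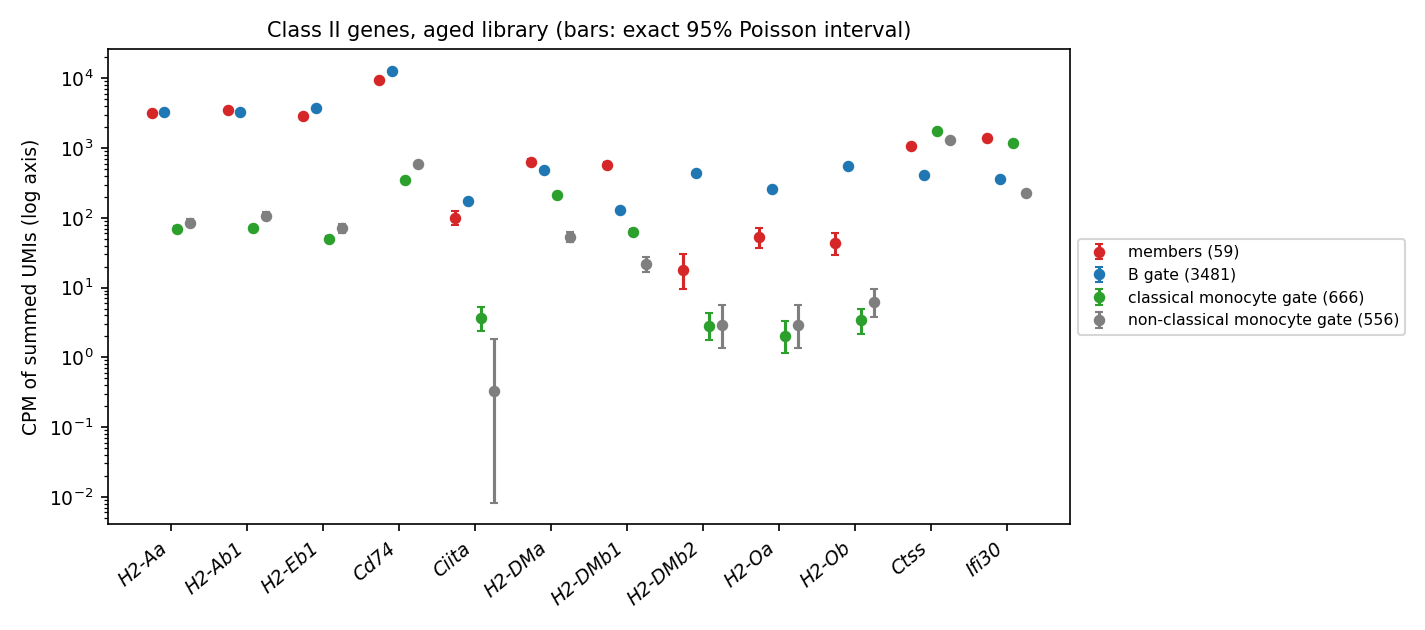
CPM of summed UMIs (vertical, log axis) of 12 class II pathway genes in the 59 aged members and in 3481 B-gate, 666 classical and 556 non-classical monocyte barcodes of the aged library; bars are exact 95% Poisson intervals. H2-Aa, H2-Ab1, H2-Eb1 and Cd74 lie near the B-cell points, and H2-DMb2, H2-Oa and H2-Ob lie between B cells and monocytes.

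Many dendritic genes that the rule did not use were also higher than in classical monocytes, though fewer were higher than in B cells. Of 15 further dendritic markers 10 were called higher and 0 lower than in classical monocytes, beside 2.05% and 1.15% of all genes. Among the 10 were Kmo, of tryptophan breakdown, at 10.4-fold (7.07 to 15.3) and Spint2 at 63.0-fold (26.4 to 183), the latter 126-fold (39.8 to 638) with free RNA subtracted. Ckb, brain creatine kinase, was 8.64-fold (7.20 to 10.4) and Ccnd1, cyclin D1, 62.1-fold (34.3 to 122) higher. Cd7 was 27.3-fold (21.2 to 35.3), Klrd1 20.6-fold (15.7 to 27.1) and the adhesion receptor Slamf7 31.8-fold (20.3 to 51.6) higher. Of the Clec9a type's genes 6 of 7 tested were higher (Irf8, Id2, Tlr3, Cd24a, Ifi205 and Rab7b), with a median log2 ratio of 1.64, and Cd36 was called neither way. Against non-classical monocytes 5 of these 7 were higher, Id2 was called neither way and Cd36 was lower, beside 3.30% and 3.45% of all genes. Against classical monocytes 2 of 13 genes of the Cd209a type were higher (Clec10a and Cd7) and 0 lower. Their median was 0.19, which was -0.05 without predicted doublets. Within the Flt3 cluster the same pair was higher and Sirpa, Itgam and Clec4a2 were lower, with a median of -0.52, and without members that carried neutrophil RNA the median was -0.56. Against B cells, 5 of 16 further dendritic markers were higher and 4 (Btla, P2ry10, Cd83 and Haao) lower, beside 9.92% and 4.29% of all genes. Kmo, Spint2, Ciita, Dpp4, Bcl11a, Adam19 and Traf1 were called neither way against B cells.

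Of 21 transcription factors tested against classical monocytes, 3 were called higher and 2 lower, beside 2.05% and 1.15% of all genes. Irf8 was 2.86-fold (2.58 to 3.17), Id2 2.93-fold (2.63 to 3.26) and Bcl11a 4.54-fold (3.35 to 6.09) higher, while Nfil3 was among those called lower, at 0.331 times (0.234 to 0.456) the level of classical monocytes. Irf8 in the members came chiefly from the Clec9a set, with 315 of 468 UMIs. Id2 was also much higher in the Clec9a set than in members with Cd209a alone. In members with Cd209a alone both genes lay below the classical monocyte level, so the Irf8 and Id2 ratios describe the pooled members. Spi1, PU.1, stood at 1.12 times (1.01 to 1.23).

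The list counts in this and the next paragraph stand beside 2.05% of all genes called higher and 1.15% called lower than in classical monocytes. Of 18 growth factor and cytokine receptors only Kit was called, at 37.3 CPM against 0.270 CPM, a ratio of 138 (34.7 to 1197). Of 13 co-stimulatory and inhibitory genes 4 were higher, namely Icosl, Tnfsf9, Btla and Slamf7, with Icosl at 4.57-fold (2.42 to 8.30). Among homing receptors Gpr183, the oxysterol receptor, was 2.76-fold (2.06 to 3.64) higher, a call lost after centring on the median gene, and Cxcr3 8.52-fold (3.30 to 21.5) (13.2-fold in the Flt3 cluster) with all 10 of its UMIs in the Clec9a set. Ccr2, used by the classical gate, was in 51 of 59 members with 385 UMIs, and at 6.48-fold (5.51 to 7.62) the non-classical level.

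Few innate sensing and inflammatory genes passed the call, most of them lower. Cd14, the lipopolysaccharide co-receptor, was 0.280 times (0.218 to 0.355) the monocyte level, and 0.0249 times (0.00677 to 0.0637) in the Flt3 cluster. Its partner gene Ly96 was 0.204 times (0.0655 to 0.481) the level on 5 member UMIs, 2 of them in the Flt3 cluster, a call lost without predicted doublets. Tlr3 was the 1 gene of 20 pattern receptors called higher, at 21.9-fold (11.3 to 44.7), and 34.0-fold in the Flt3 cluster. Of 15 cytokine and chemokine genes 0 were higher and 4 lower, namely Ccl2, Ccl3, Ccl5 and Ccl6, with Ccl2, which draws monocytes, at 0.235 times (0.176 to 0.307), and at 0.0337 times (0.0109 to 0.0788) in the Flt3 cluster. The calls of Ccl3 and Ccl5 were lost without predicted doublets, and that of Ccl5 also in the Flt3 cluster. Of 16 lysosomal genes Cst3 was higher, at 3.08-fold (2.99 to 3.18), and Ctsc, Ctsd, Ctsl and Lamp1 were lower. Of these Ctsl and Lamp1 were not called without ribosomal protein and mitochondrial genes in the scaling. In the Flt3 cluster alone 38 genes of the functional lists were lower, against 19 over all members.

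The genes most clearly lower than in classical monocytes included Chil3, Fn1, Vcan and Lyz2, which helped define that gate, and C3 (0.142 times, 0.0965 to 0.203), Thbs1 (0.171 times, 0.130 to 0.221) and Mgst1 (0.184 times, 0.144 to 0.232), which did not. Most of their UMIs came from members outside the Flt3 cluster. Within it C3 stood at 0.0285 times (0.00777 to 0.0732), Thbs1 at 0.0180 times (0.00489 to 0.0461) and Mgst1 at 0.0117 times (0.00242 to 0.0343). Without members that carried neutrophil RNA these were 0.0414, 0.0484 and 0.0680 times. Maf was at 0.0824 times (0.0169 to 0.243) on 3 member UMIs, none of them in the Flt3 cluster. Gzma was at 0.0442 times (0.00112 to 0.249) on 1 UMI, or 0.0687 times in the Flt3 cluster, and not called without predicted doublets, and Gpx3 had 0 UMIs against 159. The 4 haemoglobin genes tested were lower in members than in all 3 types, and free RNA, 26.8% haemoglobin in this library, made up 1.19% of classical, 2.50% of non-classical and 2.91% of B-gate UMIs beside 1.09% of the members'.

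Against non-classical monocytes Slamf7 (172-fold, 46.0 to 1442), Cd7 (70.3-fold, 41.0 to 131), Klrd1 (50.6-fold, 29.3 to 94.5), Kmo (80.6-fold, 26.2 to 402) and Ccnd1 (55.8-fold, 24.5 to 157) were higher, and Ciita was at 310-fold (53.8 to 12392) on 1 monocyte UMI. Without predicted doublets Cd7 had 1 monocyte UMI in place of 14 and stood at 971-fold (172 to 38541), and Slamf7 at 345-fold (60.1 to 13802). With free RNA subtracted Klrd1 had 7 monocyte UMIs in place of 14 and a ratio with an interval of 47.0 to 250. Lower were Cd36 (0.0308 times, 0.0113 to 0.0672), a fatty acid carrier, Fabp4 (0.0728 times, 0.0482 to 0.106), Ear2, Tgm2, Ets1 and Cstdc4, and the gate's own Cd300e and Fcgr4. In the Flt3 cluster Fabp4, Ear2 and Cstdc4 had 0 UMIs, and Tgm2 stood at 0.0262 times (0.00539 to 0.0769). The factor Cebpb was 0.282 times (0.262 to 0.303) and the inflammatory cytokine Il1b 0.324 times (0.284 to 0.367) the level. In the Flt3 cluster these were 0.0765 times (0.0644 to 0.0902) and 0.183 times (0.147 to 0.224), and without members that carried neutrophil RNA Il1b was at 0.0418 times. Both monocyte comparisons share the same 59 members.

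Against B cells the myeloid side of the members showed. Ckb was 233-fold (146 to 394), Pid1 219-fold (115 to 470), Tifab 260-fold (114 to 730), Aif1 659-fold (219 to 3249), Ifi205 662-fold (176 to 5580), Lmo1 534-fold (141 to 4519) and Clec10a 1048-fold (180 to 42146) higher, Aif1, Ifi205, Lmo1 and Clec10a on 1 to 3 B-cell UMIs. With free RNA subtracted Ckb was 394-fold (216 to 802) and Pid1 1075-fold (291 to 8988) higher, and Tifab, Aif1, Ifi205, Lmo1 and Clec10a had no B-cell UMI left. Csf1r, which the B gate required to be at 0, had 124 UMIs. Ebf1, the factor of B-cell identity, was 0.00540 times (0.00198 to 0.0118) the level, and 0.00140 times on 1 UMI in the Flt3 cluster, and Ly6d, Cd55, Ets1, Bank1 and Fcmr were lower too, with 0 UMIs of Fcer2a against 3215 and 3 of the gate's Ms4a1. Of 22 transcription factors 11 were higher and 0 lower, including Spi1 at 7.88-fold (7.07 to 8.77) and Id2 at 20.8-fold (18.1 to 23.8). Of 23 actin and motility genes 17 were higher and 0 lower. Beside both lists, 9.92% of all genes were called higher and 4.29% lower than in B cells.

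Genes tied to ascorbate were looked at because of the treatment. Of 17 tested transporters and ascorbate-dependent dioxygenases 0 were called either way against classical monocytes. Over all genes 2.05% were called higher and 1.15% lower, so 0 of 17 lies near those shares. The median log2 ratio was 0.03 beside 0.08 over all genes, and Tet2 stood at 0.891 times (0.642 to 1.21). Against non-classical monocytes the collagen prolyl hydroxylase P4ha1 was lower, at 0.302 times (0.184 to 0.470), and 0.134 times (0.0488 to 0.295) in the Flt3 cluster, a call lost when scaled without ribosomal protein and mitochondrial genes. Against B cells Gsto1, which reduces dehydroascorbate, was 10.7-fold (7.63 to 15) higher. P4ha1 was 3.40-fold (2.03 to 5.44) higher than in B cells, but 1.51-fold (0.543 to 3.38) and not called in the Flt3 cluster. Class I presentation genes were likewise called in 0 of 14 cases against classical monocytes, which also lies near the shares over all genes.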

How the data were processed

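Droplet 3' RNA counts of 3 libraries were used. The authors made the deposited UMI counts per gene and barcode with Cell Ranger 4, per the file headers, and the submitters' processing notes also name mm10 and Seurat 3.1.0; counting settings are not given in the sources used here. Barcodes were filtered and gated on raw counts (Python 3.11.15, numpy 2.4.6, scipy 1.17.1). Free RNA was the sum of barcodes ranked 45001 to 90000. Clusters came from 2000 variable genes, 30 components, 15 neighbours and Leiden resolution 1.0 (scanpy 1.11.5, igraph 0.11.9), and doublets from Scrublet per library, kept in the main values.

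Summed counts were scaled to CPM, with 0.5 added for medians, and the ratio step was tested on simulated data. Members and lists were chosen with earlier results of these data known. Named genes are those with at least 50 UMIs on the higher side ranked by the bound nearest to 1 (10 each way for classical monocytes, 8 for the others), without rule, immunoglobulin, haemoglobin, mitochondrial and ribosomal genes, plus list members. Intervals and floors cover counting error only. Alternatives changed the gate, depth, doublets, free RNA, scaling and minimum counts, and 2 were added after seeing the data. One listed gene is not reported here.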

Additional observations from a re-analysis of the deposited data

How the results depend on the processing

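The aged share of 0.578% became 0.363% with at least 4 of the 9 genes, 0.116% after thinning to 2000 UMIs, 0.833% for the Flt3 cluster and 0.412% for members within it, and the aged+AA share became 0.0939% for that cluster. Calls of lower genes rose to 241 (from 110) against classical and 469 (from 293) against non-classical monocytes with members of the Flt3 cluster alone, and those within the functional lists to 38 (from 19) and 46 (from 28). Leaving out members with neutrophil RNA gave 31. The set with Clec9a or Xcr1 alone fell to 8.47% of aged members on thinning, the set with both to 0% on thinning and 1.69% when 2 UMIs were needed, and the set with neither became 69.5%, 54.2% and, in the Flt3 cluster, 11.9%. The cause was not tested. The other 118 of 134 values of these kinds stayed within their counting interval, or within 1.5 times for counts of genes. Of 416 ratios of single genes 356 stayed within their counting interval, and no called ratio changed sign. The alternatives on cluster membership and neutrophil RNA were chosen after seeing the data. No paired analysis was possible because each group has 1 library. Depth limits every count of absence: 0 members among 9147 young barcodes allows 0.0328% at a floor of 3 counts, or 0.0403% by the exact bound.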
